A study of Mus musculus with 5 samples.

Results

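The expression of 10 genes of bone morphogenetic protein (BMP) signaling was examined across cell types of mouse interscapular brown adipose tissue (iBAT) in single-nuclei RNA-sequencing (snRNAseq) data. The genes were listed by name and comprised 5 ligands (Bmp2, Bmp4, Bmp6, Bmp7 and Bmp8b), 3 receptors (Bmpr1a, Bmpr2 and Acvrl1) and 2 extracellular modulators (Bmper and Kcp), out of 32285 genes in each matrix. All 10 were present in both matrices. Nuclei of male mice were isolated from whole iBAT, sorted by flow cytometry and profiled with the 10x Genomics 3′ assay. One matrix held 2 libraries from mice 3 months old, WT and Ucp1-STX4KO. Ucp1-STX4KO mice carried Ucp1-Cre+/- together with Stx4 fl/fl, so that Cre recombinase, driven by the Ucp1 promoter, deletes Syntaxin 4 in brown adipocytes. WT littermates carried either Ucp1-Cre+/- or Stx4 fl/fl alone. The other matrix, called the aging matrix, held 3 libraries from mice of 2, 12 and 24 months (Young adult, Middle age and Old). Barcodes end in a suffix that parts the libraries, but the labels do not say which sample a suffix stands for. A matrix thus counts here as 1 sample without replicates, and neither genotypes nor ages were compared. Libraries are named by suffix, and all intervals are 95% intervals that cover counting error alone, with no p-value computed.

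BMPs are secreted ligands of the TGF-β superfamily. They bind complexes of type I receptors (among them Bmpr1a and Acvrl1, also called ALK1) and type II receptors (among them Bmpr2), which phosphorylate the SMAD1/5/9 proteins, and the Id genes are classical transcriptional targets. Extracellular proteins such as Bmper and Kcp bind the ligands and alter their action. In brown adipose tissue, BMP7 is known for promoting brown adipocyte differentiation and BMP8B for increasing thermogenesis, while ALK1 signaling is known mostly from blood vessels.

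The WT and Ucp1-STX4KO matrix held 20307 nuclei and 116053743 unique molecular identifiers (UMIs, counts of distinct captured RNA molecules), with median UMIs per nucleus of 5998 and 3284.5 by library. The aging matrix held 27842 nuclei with at least 200 UMIs and 100 genes, out of 30000 barcodes. Its median UMIs by library, over all barcodes before these limits, were 891, 1635 and 1719.5. In library 1 of that matrix, 7842 of 10000 barcodes passed the limits, and all did in libraries 2 and 3. The paper states that Cell Ranger was made to return 10000 cells, which is the barcode count of each aging library. That count is thus a setting and not a number of detected nuclei. Nuclei were assigned to a class by UMIs of marker genes, which placed 88.5% and 84.9% of them. The samples are labelled as brown adipocytes, and adipocytes made up 15535 nuclei of the first matrix. Of the aging nuclei, however, 1524 were adipocytes and 17588 endothelial, so the label does not describe most of its nuclei. Ucp1, the uncoupling protein of brown adipocytes, was highest in the adipocyte class of both matrices, at 970 and 1292 CPM (UMIs per 1000000 UMIs of the class), and remained detectable in every other class with at least 50 nuclei. Levels below are such CPM values, compared across classes for 1 gene at a time. Barcode sequences shared by libraries of a matrix numbered 23 and 99, and 173 occurred in both matrices.

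Bmp6 had its highest level in endothelial nuclei and Bmper in stromal nuclei (fibroblasts or progenitors) of every library. Bmpr1a and Bmpr2 were detected in all classes of at least 50 nuclei. In the first matrix, endothelial nuclei held 40.3% of the Bmp6 UMIs, adipocytes 22.0% and nuclei that passed several gates 30.6%. Stromal nuclei held 24.9% of the Bmper UMIs there and adipocytes, the largest class, 47.8%. A class was called leading for a gene where it reached at least 2 times the level of every other class of at least 50 nuclei, with at least 20 UMIs. A gene counted as tested where any such class held at least 20 UMIs of it. In the WT and Ucp1-STX4KO matrix, 4 of 9 tested members had a leading class, against 21.6% of all tested genes. Bmp2, Bmp4 and Bmp8b had only 6, 7 and 9 UMIs in their highest class there, so they could not be called. Bmp6 and Acvrl1 were led by the endothelial class (2.24% of all tested genes), Bmper by the stromal class (2.61%) and Bmpr1a by skeletal muscle. Likewise, 4 of 9 members of the aging matrix had a leading class against 23.2% of all tested genes. These were Bmp6 in the endothelial class (5.24% of all tested genes), Bmp4 and Bmper in the stromal class (2.56%) and Bmp2 in mural nuclei (pericytes or smooth muscle). Shares over all tested genes were not counted for skeletal muscle or mural nuclei, so how common such calls are is not known. The members were chosen with earlier results of these data known, so neither count is an independent comparison with all genes. Bmp7 had under 20 UMIs in every class of both matrices and was not tested. The median ratio of the highest to the next class was 1.60 over the tested members and 1.47 over all tested genes in the first matrix (1.44 and 1.49 in the aging matrix). The adipocyte class, the largest of the first matrix, was leading for no member in either matrix, against 6.31% and 7.29% of all tested genes. With 9 tested members per matrix, shares this small would leave few or none, so the absence is not read as a trait of the members.

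**Figure D1:**
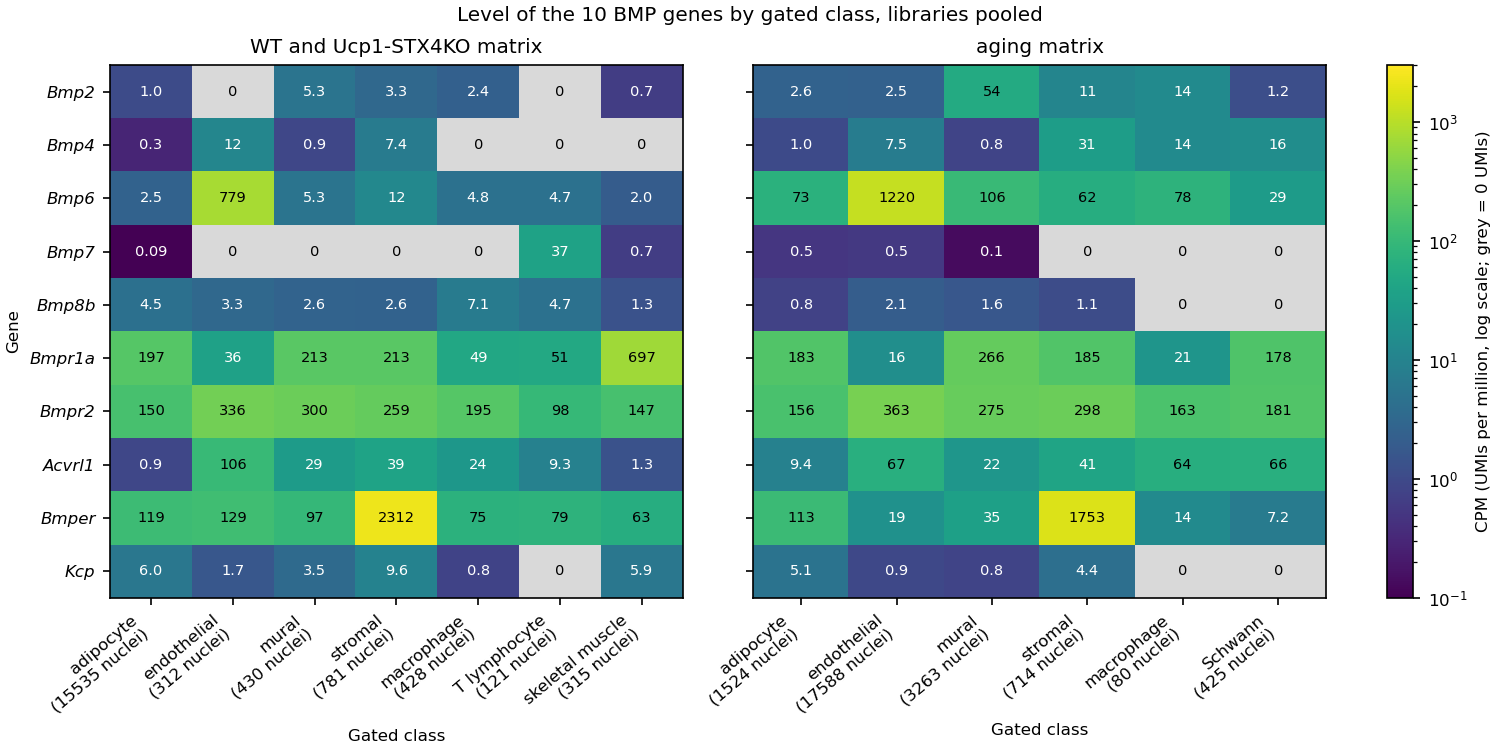
Levels of the 10 genes (rows) in each gated class of at least 50 nuclei (columns), with the WT and Ucp1-STX4KO matrix on the left and the aging matrix on the right. Colour gives CPM on a log scale and each cell prints the value, with grey for 0 UMIs. Bmp6 stands out in the endothelial column (779 and 1220 CPM) and Bmper in the stromal column (2312 and 1753 CPM) of both matrices.

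Promoter sequences from RefSeq (GRCm38.p6) were available for 7 of the 10 genes: Bmp4, Bmp6, Bmp8b, Bmper, Bmpr1a, Bmpr2 and Kcp. Bmp2, Bmp7 and Acvrl1 had none. The 250 bases upstream of the RefSeq start overlapped no GENCODE gene for 3 of them, which are shown because they flank a stromal gene of both matrices, a ligand highest in stromal nuclei of the aging matrix, and a ligand known from brown fat. Bmper lies at chr9:23222826-23223075 (plus strand), Bmp4 at chr14:46390670-46390919 (minus strand) and Bmp8b at chr4:123104911-123105160 (plus strand). Capitals mark matches on either strand to AGGAAG or CGGAAG (bound by ETS factors), GGGCGG (a GC box), GGCGCC (a GC-rich SMAD element) or TATAAA.
Bmper: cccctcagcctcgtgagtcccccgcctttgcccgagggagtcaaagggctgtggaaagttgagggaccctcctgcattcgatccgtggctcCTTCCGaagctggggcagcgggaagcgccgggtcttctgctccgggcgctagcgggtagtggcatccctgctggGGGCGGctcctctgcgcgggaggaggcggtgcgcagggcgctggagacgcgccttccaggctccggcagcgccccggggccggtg
Bmp4: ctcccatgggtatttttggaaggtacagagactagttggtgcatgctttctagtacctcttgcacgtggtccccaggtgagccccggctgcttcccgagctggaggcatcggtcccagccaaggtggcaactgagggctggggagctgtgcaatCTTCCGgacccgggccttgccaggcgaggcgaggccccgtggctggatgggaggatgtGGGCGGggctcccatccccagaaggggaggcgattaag
Bmp8b: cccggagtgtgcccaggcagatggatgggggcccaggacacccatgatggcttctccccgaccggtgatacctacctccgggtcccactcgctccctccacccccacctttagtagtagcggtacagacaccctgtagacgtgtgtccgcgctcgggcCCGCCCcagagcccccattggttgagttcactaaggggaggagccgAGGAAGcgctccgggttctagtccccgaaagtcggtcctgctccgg
CGGAAG occurred in the Bmper and Bmp4 windows, and in 13.6% of 32851 RefSeq windows of the same length. AGGAAG occurred in the windows of Bmp8b, Kcp and Bmpr2 (29.5% of all windows). GGGCGG was present in all 7 member windows (32.7% of all windows), GGCGCC in those of Bmpr1a and Bmpr2 (9.59%), and TATAAA in none (12.4%). The member windows held between 11 and 36 CG dinucleotides, against a median of 6 over all windows. These matches describe letters and do not show that a factor binds.

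Bmp6 (ENSMUSG00000039004, chr13:38345107-38500302 in GRCm38, plus strand), a ligand known from liver endothelium as a regulator of iron balance, had its highest level in endothelial nuclei of all 5 libraries. In the WT and Ucp1-STX4KO matrix, its endothelial level was 1364 CPM in library 1 and 539 CPM in library 2. Aging libraries had 1763, 931 and 1375 CPM in endothelial nuclei of libraries 1, 2 and 3. Among the other classes of at least 50 nuclei in a library, the highest value was 114 CPM, so the endothelial values did not overlap with them. Pooled over libraries, the endothelial level was 779 CPM (interval 710 to 852, 471 UMIs) against 12.2 CPM in stromal nuclei, the next class, a ratio of 64.1 (45.0 to 94.2) that became 123 within the range of UMIs and genes that the methods state. The aging matrix gave 1220 CPM from 37838 UMIs against 106 CPM in mural nuclei, a ratio of 11.5 (10.7 to 12.4). Keeping nuclei that passed several gates in the class with the most marker UMIs brought the aging ratio to 7.42. Subtracting an endothelial share from the other classes gave 32.2, but this step can only lower those classes, so the direction was fixed beforehand.

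At least 1 Bmp6 UMI was found in 47.8% of endothelial nuclei of the first matrix and 66.6% of those of the aging matrix, at median depths of 1762 and 1548 UMIs. Adipocyte nuclei carried one in 0.991% and 12.1%, at median depths of 5783 and 2268 UMIs. After thinning each nucleus to 500 UMIs, the shares were 26.0% and 38.4% in endothelial nuclei and 0.200% and 3.04% in adipocytes. The level of Bmp6 in aging adipocytes was 6.00% of its endothelial level, and that of the summed endothelial markers 6.13%. For adipocytes of the first matrix these were 0.326% and 0.249%. Over the 5 other classes of the aging matrix, Bmp6 lay between 2.35% and 8.69% of its endothelial level and the endothelial markers between 3.86% and 8.64%. In stromal nuclei of the first matrix, Bmp6 was at 1.56% and the markers at 0.338%, and in aging mural nuclei they were at 8.69% and 5.73%.

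Acvrl1 (ENSMUSG00000000530, chr15:101128522-101145336, plus strand), the type I receptor ALK1, was also highest in endothelial nuclei of the first matrix, but was spread over more classes. Its endothelial level was 108 CPM in library 1 and 105 CPM in library 2, from 19 and 45 UMIs. Stromal nuclei reached 50.2 and 31.7 CPM and mural nuclei 15.5 and 43.6 CPM, below the endothelial value of either library. The pooled ratio of endothelial to stromal nuclei was 2.68 (1.94 to 3.69), and 9.52 within the stated range of UMIs and genes. Aging endothelial nuclei had 61.4, 60.0 and 74.6 CPM, and the 334 Schwann nuclei of library 1 had 80.4 CPM. Pooled, endothelial (67.3 CPM) and Schwann nuclei (65.8 CPM) had a ratio of 1.02 (0.783 to 1.36), so no leading class was called and the order was not resolved. The ratio was 0.764 in library 1 alone, against 2.27 and 2.36 in libraries 2 and 3, which held 3 and 4 Schwann UMIs of the gene. Unlike Bmp6, Acvrl1 in stromal nuclei reached 37.3% and 60.9% of its endothelial level in the matrices, where the endothelial markers reached 0.338% and 5.89%.

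**Figure D2:**
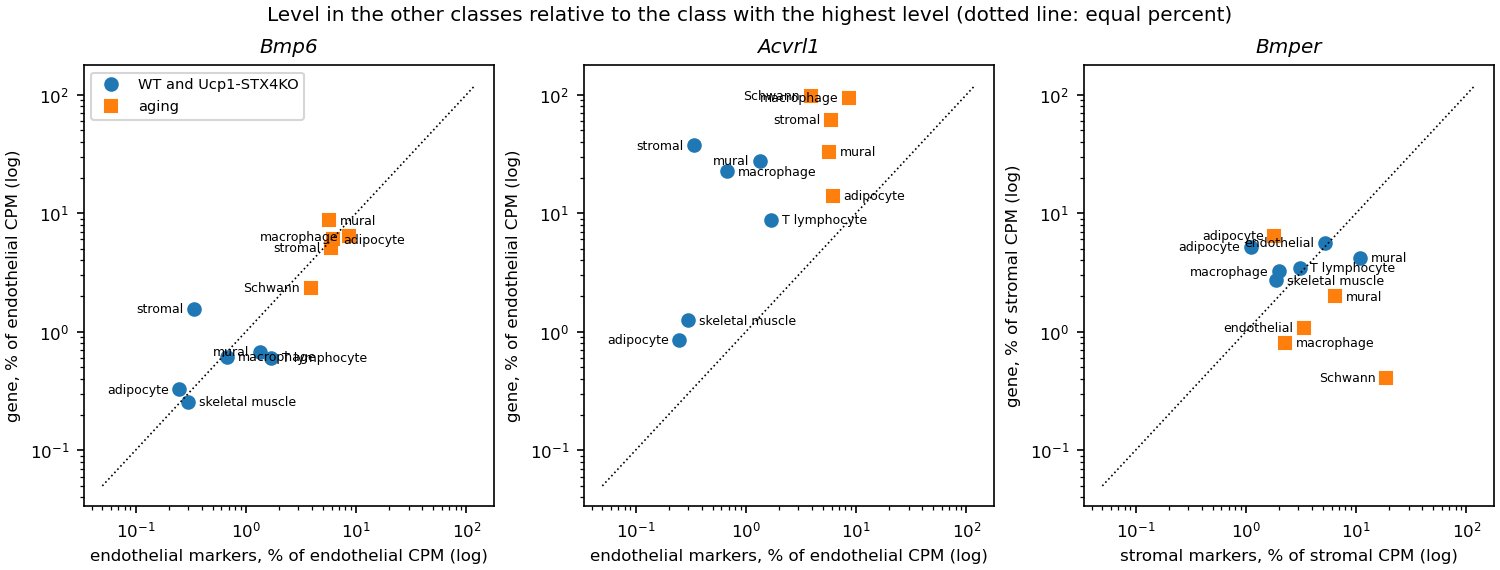
For each class other than the source class, the level of a gene (vertical axis, percent of its CPM in endothelial or stromal nuclei) is plotted against that of the summed markers of that source class (horizontal axis, percent), both on log scales, with circles for the WT and Ucp1-STX4KO matrix and squares for the aging matrix. Bmp6 points lie on both sides of the line of equal percent, above it in stromal nuclei (1.56% against 0.338%) and below it in T lymphocytes (0.599% against 1.70%) of the first matrix, every Acvrl1 point lies above it, and Bmper lies above it in adipocytes (5.15% and 6.45% against 1.11% and 1.81%).

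**Figure D3:**
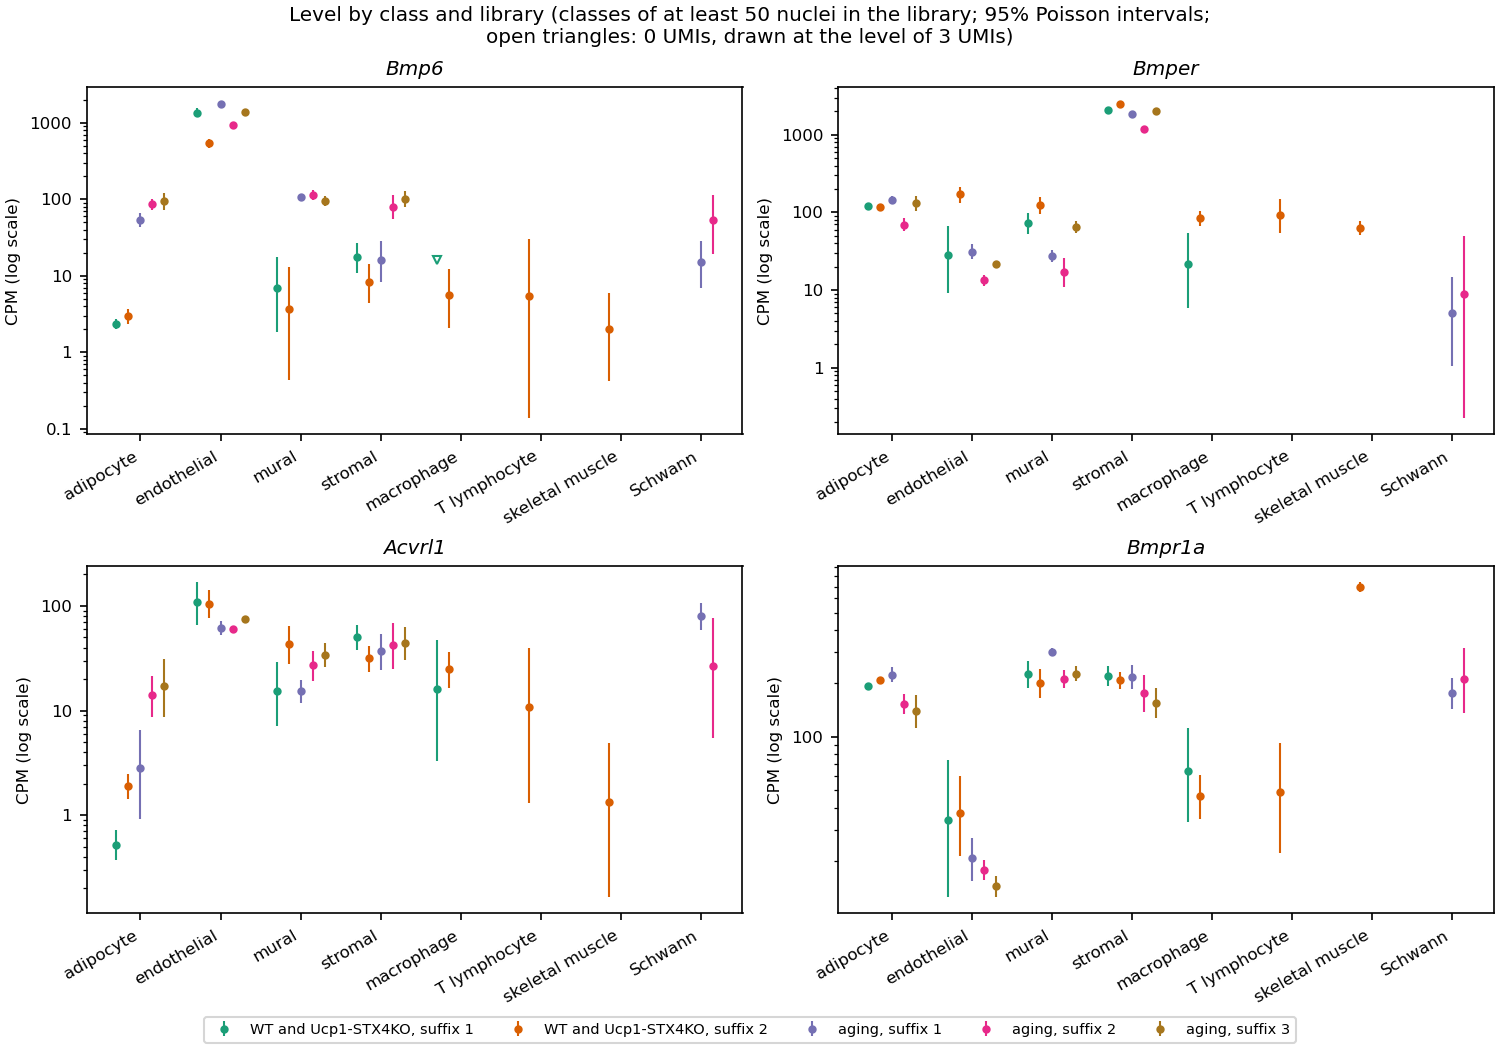
Levels of Bmp6, Bmper, Acvrl1 and Bmpr1a by class and library, in CPM on a log axis, for classes of at least 50 nuclei in the library. Points are libraries, bars are 95% Poisson intervals, and an open triangle marks 0 UMIs, drawn at the level of 3 UMIs. In each library the endothelial point is the highest for Bmp6 and the stromal point the highest for Bmper, whereas Bmpr1a is low in endothelial nuclei.

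Bmp2 (ENSMUSG00000027358, chr2:133552159-133562885, plus strand), a ligand of bone and cartilage formation, was highest in mural nuclei. Its mural level in the aging matrix was 79.0 CPM in library 1, 17.8 CPM in library 2 and 22.6 CPM in library 3, so library 1 stood apart and gave 330 of the 396 mural UMIs. Stromal nuclei had 10.9, 10.1 and 11.5 CPM, below the mural value of every library. The pooled mural level of 53.6 CPM was 4.90 times the stromal level (3.13 to 8.12). Macrophages formally ranked next, from 2 UMIs in 80 nuclei, with a ratio of 3.79 (1.04 to 31.4). Library 2, which held those 2 UMIs, alone gave a ratio of 0.717. Bmp2 was scarce in the first matrix, with 5.30 CPM from 6 mural UMIs, and the interval of its ratio to stromal nuclei (1.60, 0.468 to 5.03) included 1.

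Bmp4 (ENSMUSG00000021835, chr14:46383520-46390669, minus strand), a ligand that commits mesenchymal precursors to the adipocyte lineage, was found at low levels in stromal and endothelial nuclei. Aging stromal nuclei had 39.4, 5.01 and 37.4 CPM in libraries 1, 2 and 3, the middle value resting on 2 UMIs. Schwann nuclei had 13.4, 35.3 and 7.91 CPM, so the classes overlapped. The pooled ratio of stromal to Schwann nuclei was 2.00 (1.08 to 3.99), and in library 2 alone it was 0.142. Stromal nuclei of the first matrix had 15.0 and 1.90 CPM and endothelial nuclei 5.68 and 14.0 CPM in libraries 1 and 2, an order that changed from library to library.

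Bmp8b (ENSMUSG00000002384, chr4:123105165-123132099, plus strand) shares its locus with Oxct2b on the same strand, so UMIs of these genes may not be fully separated. In the first matrix 92.9% of its 494 UMIs lay in adipocyte nuclei, a class that holds 101242755 of the 116053743 UMIs of all genes there. Adipocytes had 398 UMIs in library 1, or 5.46 CPM (4.93 to 6.02), and 61 in library 2, or 2.16 CPM (1.65 to 2.77), so the libraries differed beyond counting error. Macrophages had 7.14 CPM from 9 UMIs, and their ratio to adipocytes of 1.58 (0.716 to 3.02) included 1. Aging nuclei held little of it, in adipocytes (3 UMIs, 0.765 CPM) as in endothelial nuclei (2.06 CPM).

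Bmp7 (ENSMUSG00000008999, chr2:172868012-172940321, minus strand) was nearly absent from the counts, with 27 UMIs in the first matrix and 26 in the aging matrix. Of those in the first matrix, 8 came from 8 of 121 T lymphocyte nuclei, all of library 2. Pooled over both libraries, the T lymphocyte class had 37.3 CPM (16.1 to 73.6). Adipocytes held 9 UMIs in 15535 nuclei (0.0889 CPM). Endothelial nuclei of the aging matrix held 17 UMIs (0.548 CPM), and the 28 T lymphocyte nuclei held none, where 3 UMIs would give 85.2 CPM.

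Bmpr1a (ENSMUSG00000021796, chr14:34410734-34503341, minus strand), a type I receptor used by BMP2 and BMP4, was present in adipocytes, mural and stromal nuclei at similar levels and low in endothelial nuclei. In the first matrix its adipocyte level was 192 and 210 CPM, its mural level 225 and 200 CPM and its stromal level 220 and 208 CPM in libraries 1 and 2. Endothelial nuclei had 34.1 and 37.3 CPM, below all of these. Aging endothelial nuclei had 20.7, 17.9 and 14.5 CPM, and the lowest adipocyte, mural or stromal value of any library was 139 CPM. Skeletal muscle nuclei, gated almost only in library 2 of the first matrix (308 of 315), had 697 CPM, 3.27 times the stromal level (2.95 to 3.63). Within the stated range of UMIs and genes, the ratio was 2.12, and too few muscle nuclei were left to be called. The aging matrix gave no skeletal muscle nuclei, and its mural nuclei ranked first at 266 CPM, 1.44 times stromal nuclei (1.28 to 1.62).

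Bmpr2 (ENSMUSG00000067336, chr1:59763400-59879014, plus strand), the type II receptor mutated in heritable pulmonary arterial hypertension, was spread more evenly than the other 2 receptors. In the first matrix the levels ran from 98.0 CPM in T lymphocytes to 336 CPM in endothelial nuclei, which did not differ beyond counting error from mural nuclei at 300.2 CPM (ratio 1.12, 0.935 to 1.33). Aging endothelial nuclei had 308, 259 and 461 CPM and stromal nuclei 318, 214 and 326 CPM in libraries 1, 2 and 3, so the groups overlapped. The pooled ratio was 1.22 (1.12 to 1.33), but 0.969 in library 1 alone. Adipocytes had 150 CPM in the first matrix and 156 CPM in the aging matrix.

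Bmper (ENSMUSG00000031963, chr9:23223076-23485200, plus strand), a secreted BMP-binding protein also called crossveinless-2, was led by stromal nuclei. Its stromal level was 2093 and 2469 CPM in libraries 1 and 2 of the first matrix, and 1816, 1183 and 2013 CPM in the libraries of the aging matrix. Among the other classes of at least 50 nuclei in a library, the highest value was 170.3 CPM. The pooled ratio was 17.9 (14.3 to 22.7) over endothelial nuclei in the first matrix and 15.5 (14.0 to 17.2) over adipocytes in the aging matrix. Over endothelial nuclei, library 1 of the first matrix, with 5 endothelial UMIs, gave 73.7 in place of 17.9, and the stated range of UMIs and genes gave 9.40. In that library adipocytes stood above endothelial nuclei, so 73.7 is not a ratio to the next class. A UMI of Bmper was found in 86.6% and 69.7% of stromal nuclei, and in 58.3% and 45.1% after thinning to 500 UMIs.

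Bmper was also counted in adipocytes, at 120 and 118 CPM in libraries 1 and 2 of the first matrix and 144, 69.5 and 130 CPM in those of the aging matrix. This was 5.15% and 6.45% of the stromal level, where the summed stromal markers reached 1.11% and 1.81%. After thinning, 4.50% of aging adipocytes had a Bmper UMI against 0.791% of endothelial nuclei. The corresponding shares of the first matrix were 6.05% and 6.11%, so that adipocytes and endothelial nuclei were alike there. Whether free RNA contributes to these values was not tested.

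Kcp (ENSMUSG00000059022, chr6:29473162-29507952, minus strand), or kielin/chordin-like protein, which enhances BMP signaling, had low levels in adipocytes, stromal nuclei and skeletal muscle. It overlaps annotated genes on both strands. In adipocytes of the first matrix it had 587 UMIs and 8.05 CPM (7.41 to 8.72) in library 1, but 23 UMIs and 0.813 CPM (0.515 to 1.22) in library 2. Stromal nuclei showed the same order of libraries, with 19.4 and 2.53 CPM from 22 and 4 UMIs. The ratio of stromal to adipocyte nuclei was 2.41 in library 1 and 3.11 in library 2, and 1.59 (1.03 to 2.35) when the libraries, which hold the classes in different shares, were pooled. It was 6.52 within the stated range of UMIs and genes. Skeletal muscle nuclei of library 2 had 6.07 CPM (2.77 to 11.5) from 9 UMIs, above the adipocytes of that library. The aging matrix gave 5.10 CPM in adipocytes and 4.37 CPM in stromal nuclei, from 20 and 8 UMIs.

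Adipocytes of the first matrix were divided by markers of white adipocytes (Cyp2e1, Aldh1a1, Nnat and Retn), which gave 1079 white-like and 14456 other nuclei. Ucp1 was 274 CPM in the former and 1036 CPM in the latter. Of the white-like nuclei, 974 were in library 2, so values are given within libraries. The white-like gate asks for a number of marker UMIs and no share of the nucleus's UMIs, so deeper nuclei pass it more easily. Depth was not matched between the subsets, and its part in the ratios below was not tested. Kcp was lower in white-like nuclei, with a ratio of 0.102 (0.003 to 0.572) in library 1 and 0.122 (0.003 to 0.754) in library 2, from 1 UMI in the white-like nuclei of each library. Bmper was higher, at 213 against 118 CPM in library 1 (ratio 1.80, 1.58 to 2.04) and 142 against 109 CPM in library 2 (1.30, 1.21 to 1.40). Bmpr1a was also higher in both libraries, by ratios of 1.22 (1.08 to 1.37) and 1.29 (1.22 to 1.36). For Bmpr2 the ratio was 1.02 (0.881 to 1.18) in library 1 and 1.14 (1.06 to 1.22) in library 2. For Bmp8b it included 1 in both libraries, at 0.762 (0.246 to 1.79) and 0.799 (0.406 to 1.48), whereas the pooled ratio of 0.449 (0.268 to 0.710) did not.

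**Figure D4:**
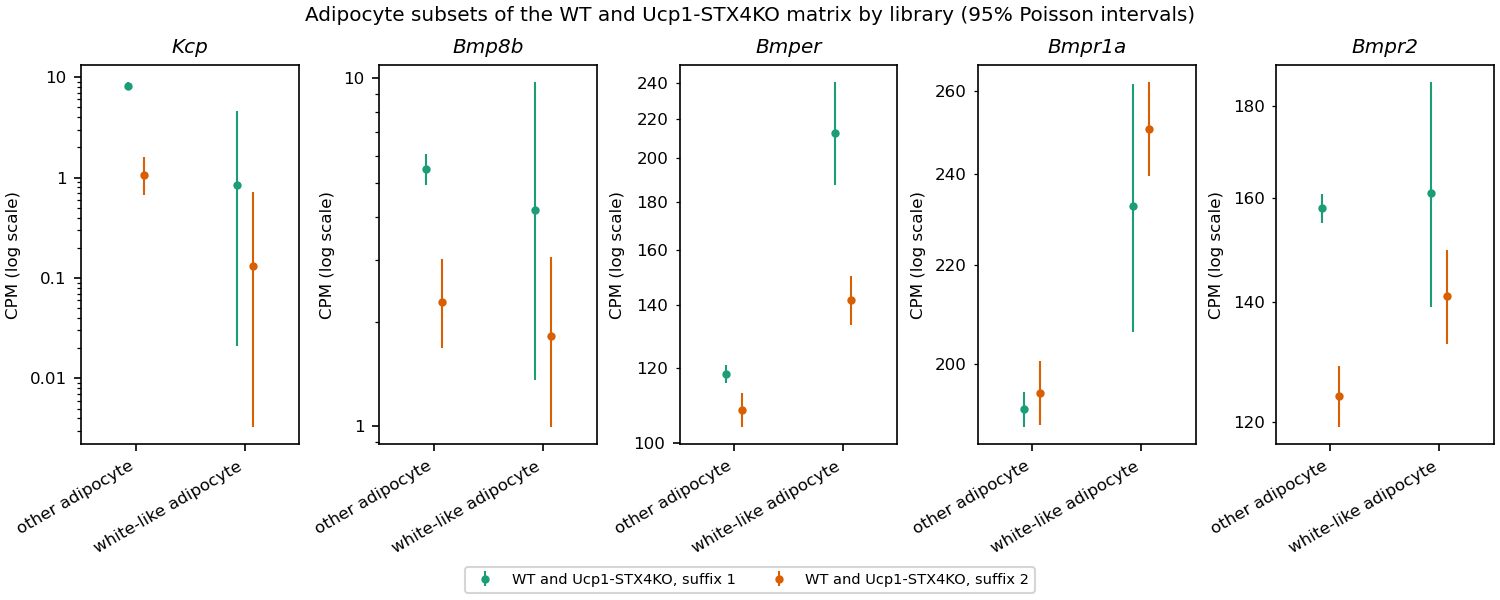
Levels of Kcp, Bmp8b, Bmper, Bmpr1a and Bmpr2 in white-like and other adipocyte nuclei of the WT and Ucp1-STX4KO matrix, in CPM on log axes that differ by panel, with 1 point per library and 95% Poisson intervals. Kcp is lower, and Bmper and Bmpr1a are higher, in white-like nuclei of both libraries.

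Endothelial nuclei of the aging matrix were numerous enough to be divided by vessel type, into 7605 capillary, 417 arterial and 298 venous nuclei (8520 fell in no subset). Bmp6 was highest in capillary nuclei of every library, at 2039, 1059 and 1560 CPM in libraries 1, 2 and 3. Arterial nuclei had 1141, 636 and 863 CPM and venous nuclei 221, 345 and 315 CPM, with no overlap between the venous values and the others. The pooled venous to capillary ratio was 0.225 (0.198 to 0.256) and the arterial to capillary ratio 0.570 (0.526 to 0.616). With 10 venous and 123 capillary nuclei, the first matrix gave a venous to capillary ratio of 0.0772 (0.00930 to 0.282).

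Bmpr2 and Bmp4 showed the opposite order. Venous nuclei had 792, 605 and 934 CPM of Bmpr2 against 242, 240.5 and 422 CPM in capillary nuclei, a pooled ratio of 2.47 (2.27 to 2.69). The venous to capillary ratio of Bmp4 was 9.40 (6.00 to 14.4), from 33 and 68 UMIs, and was 13.8 and 7.28 in libraries 2 and 3. In library 1, Bmp4 had 3 venous and 1 capillary UMIs. Acvrl1 differed less, with an arterial to capillary ratio of 1.61 (1.28 to 2.01) pooled, 2.66 in library 1 (6 arterial UMIs, an interval that included 1), 0.974 (0.580 to 1.54) in library 2 and 1.90 (1.43 to 2.47) in library 3, and a venous to capillary ratio of 1.14 (0.859 to 1.49).

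**Figure D5:**
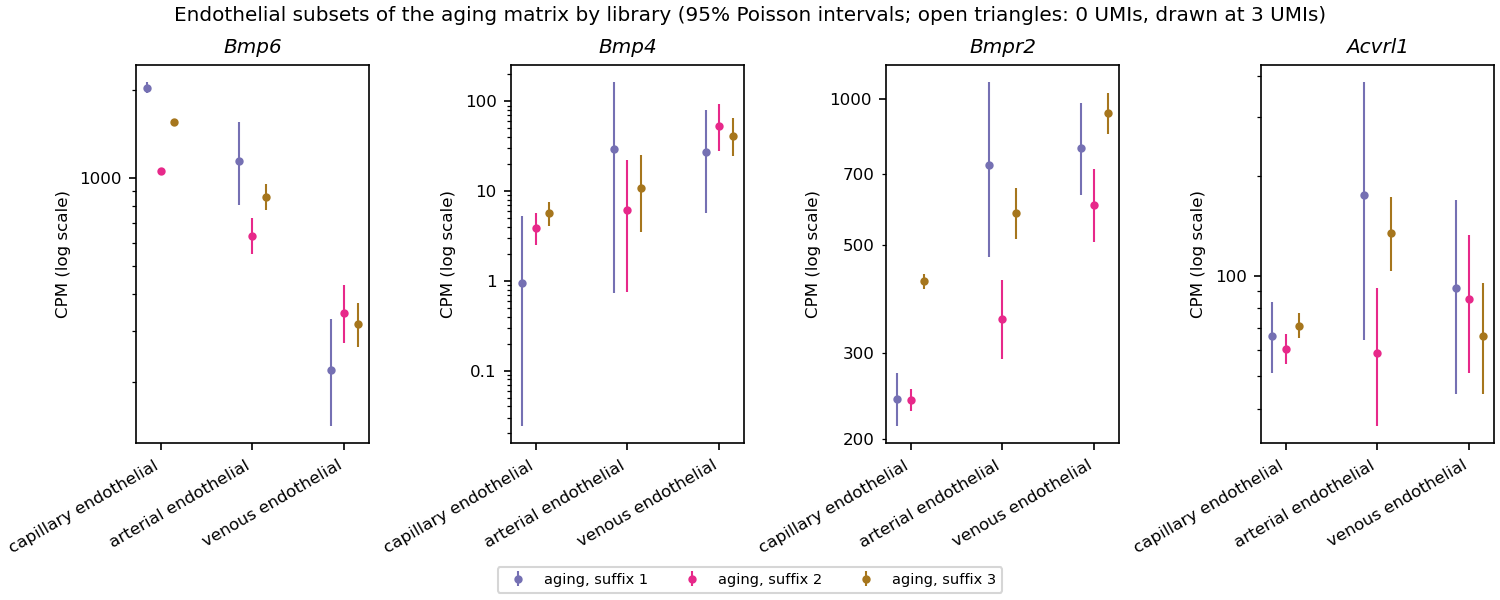
Levels of Bmp6, Bmp4, Bmpr2 and Acvrl1 in capillary, arterial and venous endothelial nuclei of the aging matrix, in CPM on log axes that differ by panel, with 1 point per library and 95% Poisson intervals. From capillary to venous nuclei, Bmp6 falls and Bmpr2 rises in all 3 libraries.

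The other 48 genes of a list of 58 pathway genes were called by the same rule. Of the tested genes, a leading class was found for 18 of 37 in the first matrix (48.6%, against 21.6% of all tested genes) and for 15 of 34 in the aging matrix (44.1%, against 23.2%). Some tested genes, such as Bmp3 and Gdf5 in the first matrix, could not be called because their highest class held under 20 UMIs. The list, too, was chosen with earlier results of these data known. The endothelial class was leading in both matrices for Eng, the co-receptor endoglin, for the inhibitory SMAD Smad7 and for the target genes Id1 and Id3. Eng had 738 and 611 CPM in endothelial nuclei, with ratios of 4.88 (4.09 to 5.86) and 4.78 (3.95 to 5.84) over the next class. Id1 had 349 and 268 CPM, with ratios of 21.6 (18.6 to 24.9) and 2.71 (1.61 to 4.96), the second over macrophages. Smad1 and Smad6 were led by the endothelial class in the first matrix and Smad9 in the aging matrix.

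The stromal class was leading in both matrices for the ligands Bmp5 and Gdf10, the type II receptor Acvr2a, and the modulator Vwc2. Gdf10 had 75.4 CPM in aging stromal nuclei, 46.8 times the next class (33.6 to 66.0), and Bmp5 had 292 CPM, 2.60 times mural nuclei (2.33 to 2.91). Bmp1 and Chrdl1 joined them in the first matrix, although the interval for Chrdl1 (3.68, 0.940 to 31.6) included 1, and Rgma and Nbl1 in the aging matrix. In skeletal muscle of the first matrix, the type I receptor Bmpr1b (302 CPM, 20.1 times mural nuclei, 12.4 to 34.9), the co-receptor Hjv and the modulators Crim1 and Twsg1 were leading beside Bmpr1a. The target gene Id2 was led by T lymphocytes in that matrix. The aging matrix added Fst and Id4 in mural nuclei, the latter with an interval (0.607 to 18.4) that included 1, and Sostdc1, a secreted BMP antagonist, in Schwann nuclei (78.9 CPM, 97.2 times mural nuclei, 42.4 to 274). For skeletal muscle, T lymphocytes, mural and Schwann nuclei, the shares over all tested genes were not counted. None of the 48 genes was led by adipocytes in either matrix, where 6.31% and 7.29% of all tested genes were. Shares this small leave few such genes to expect among the 37 and 34 tested.

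To place each member among all genes, the 3 genes with the most similar levels were found by Pearson correlation of log2(CPM + 1) over the 12 combinations of class and library with at least 50 nuclei in the first matrix, among genes with at least 200 UMIs. These points share libraries and differ in depth, so the values are descriptive. Bmp6 was most like Flt1 (0.963), Shank3 (0.963) and Cdh5 (0.962), of which Flt1 and Cdh5 are endothelial markers of the gate. Bmper was most like Medag (0.975), Dclk1 (0.971) and the stromal marker Pdgfra (0.961). Acvrl1 resembled Slfn5 (0.976), Mospd2 and Anxa3, and Bmpr2 resembled Cxcl12 (0.941), Rasal2 and Spaca6. Bmp4 resembled Fbln5 (0.910), Cd34 and Sncaip. Bmp7, with 27 UMIs, had the T lymphocyte markers Bcl11b (0.988) and Themis among its most similar genes. For the remaining members the most similar genes were Zkscan4 (0.902), Zfp300 and Hsf5 for Bmp2, Rac3 (0.914), Lamtor4 and Gm42917 for Bmp8b, Gm14443 (0.913), Gm28376 and Slc25a47 for Bmpr1a, and Gm11536 (0.896), Sat2 and Ift46 for Kcp.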

How the data were processed

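Per the file headers, the deposited files hold raw UMI counts per gene and nucleus in 2 matrices, which the authors made by aligning reads to mouse mm10 with Cell Ranger 6.1.2; their notes also name Seurat 4.1.0. The annotation release, and whether depth was equalised between libraries, are not given in the sources used here. Neither matrix names cell types. The members, gene lists and alternatives were chosen with earlier results of these data known, and the gate thresholds after the depth of the files had been seen. Nuclei with at least 200 UMIs and 100 genes were kept; the upper limits that the methods state (2000 UMIs and 3000 genes) were used only as an alternative. A nucleus entered 1 of 9 classes (6 to 8 markers each) with at least 3 marker UMIs from at least 2 markers and 20 marker UMIs per 10000 UMIs (40 for adipocytes). Nuclei passing several gates were left out as possible doublets, and no doublet caller was run. An endothelial subset needed at least 2 UMIs from at least 2 of its markers, and the white-like subset at least 3 UMIs from at least 2. UMIs were summed per class and library (Python 3.11.15; pandas 2.3.3; numpy 2.4.6; scipy 1.17.1). Intervals at 95% were exact: Poisson for a sum, Clopper-Pearson for a share, and conditional binomial for a ratio of CPM values; against a class with 0 UMIs a floor of 3 counts was used. The named genes were the 10 members, the pathway list, the 3 genes most alike and the markers. The code was tested on simulated class sums. Gene positions are from GENCODE vM21 (GRCm38), and whether counting used strand is not given in the sources used here; genes overlap Bmp4, Bmp6, Bmpr1a and Acvrl1 on the opposite strand, Bmpr2 on the same strand, and Bmp8b and Kcp on both. Some genes are not reported here.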

Additional observations from a re-analysis of the deposited data

Results flagged for a closer look

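Nuclei that passed no gate entered no comparison above, and a signal was looked for in them at 2 or more times the level of all but the highest gated class. Bmper stood at 1194 CPM in the ungated nuclei of the WT and Ucp1-STX4KO matrix, from 5826 UMIs, of which 5761 lay in library 2 (1206 CPM). That is 23.1% of all Bmper UMIs of the matrix. The level lies below that of stromal nuclei (2312 CPM) and above that of every other class of at least 50 nuclei. The summed stromal markers in the same nuclei were at 10.6% of their level in stromal nuclei and the macrophage markers at 11.0% of theirs. In the aging matrix, ungated nuclei had 232 CPM of Bmper, with stromal markers at 6.51% of their level in stromal nuclei, and 495 CPM of Bmp6, with endothelial markers at 15.9% of their level in endothelial nuclei. The part that weakly marked nuclei of those classes have in these levels was not tested.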

How the results depend on the processing

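Members with a leading class numbered 3 or 4 under every alternative run in either matrix, except in library 2 of the aging matrix alone, where the count was 2 in place of 4. Single libraries gave 3 and 4 in the first matrix and 2 to 4 in the aging matrix. Bmp6 and Bmper kept their leading class under all of them. Among the ratios of a leading class to the next, directions turned in library 2 of the aging matrix alone, where the mural to macrophage ratio of Bmp2 was 0.717 and the stromal to Schwann ratio of Bmp4 was 0.142. Where no class was leading, the order of the highest classes turned under at least 1 alternative for Bmp2, Bmp4, Bmp8b and Bmpr2 in the first matrix and for Bmp7, Bmp8b, Acvrl1, Bmpr2 and Kcp in the aging matrix. Acvrl1 was no longer leading in library 1 of the first matrix alone (19 endothelial UMIs), after thinning to 500 UMIs or at a fold of 3, and Bmpr1a was not leading in that library alone (7 muscle nuclei) or within the stated range of UMIs and genes. Kcp became leading in stromal nuclei of that library alone. Bmp2 in the aging matrix was not leading in libraries 2 and 3 alone. Bmp4 in the aging matrix lost its leading class under the stricter gate, with nuclei of several classes kept, within the stated range, after thinning, without shared barcodes and at a fold of 3. The subtraction of an endothelial share was added after the data had been seen and left both counts at 4. No paired analysis was possible between the groups of the study because the labels tie no barcode suffix to a sample, and classes were set side by side within each library without a test. Depth limits the genes with few UMIs, namely Bmp7, Bmp8b in the aging matrix, Kcp, and Bmp2 and Bmp4 in the first matrix.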
